A study of Mus musculus with 16 samples.

Results

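A set of 10 genes of the circadian clock was followed in oligodendrocytes of juvenile mice after perinatal exposure to bisphenol A (BPA): Clock, Npas2, Per2, Per3, Cry1, Cry2, Nr1d1, Nr1d2, Dbp and Ciart. These 10 genes were chosen by name from the 32207 genes of the deposited table, with earlier results of these data known. The 16 RNA libraries came from mice of the outbred strain OF-1 and comprised 4 groups of 4: unexposed males (male control), unexposed females (female control), exposed males (male BPA) and exposed females (female BPA). All cells came from brains at postnatal day 16, dissociated and sorted with magnetic beads for O4, a surface lipid antigen of the oligodendrocyte lineage. The BPA pups were exposed through their mothers from gestational day 7 through lactation, at a labelled dose of 40 µg/kg/day, and the controls carry no treatment other than the label control. Each library was made from 1 mouse, from cells left over after some had been taken for chromatin profiling, as the design text states. The study's design text puts 250 µg/mL of BPA in the mothers' drinking water. How the water concentration gives that dose was not settled here. Litter, processing batch and the hour at which brains were taken are not given in the sources used here. Clock genes vary with the time of day, and the part of the collection hour in any difference given here was not tested. Littermates would share an exposed mother, in which case p-values for BPA against control are too small.

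The mammalian clock is a feedback loop of transcription that runs in nearly every cell, glia included. CLOCK or its relative NPAS2 pairs with BMAL1, the product of Arntl, and the pair binds E-boxes and activates the Per and Cry genes, Nr1d1, Nr1d2, Dbp and Ciart. PER and CRY proteins, and CIART, then inhibit that pair. NR1D1 and NR1D2 (REV-ERB alpha and beta) are nuclear receptors that repress Arntl, Clock, Npas2 and Cry1 through ROR elements, so that Arntl peaks when the E-box genes are low. DBP is an output transcription factor that activates genes with a D-box, among them Per3.

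The promoters of Per3, Ciart and Cry1 are shown because they are the member promoters in which the searched binding motifs occurred. They give the 250 bases before the start of transcription in the RefSeq table for build GRCm38.p6, read 5′ to 3′ along the gene's own strand, and capitals mark the motifs.
Per3, chr4:151044666-151044915, minus strand: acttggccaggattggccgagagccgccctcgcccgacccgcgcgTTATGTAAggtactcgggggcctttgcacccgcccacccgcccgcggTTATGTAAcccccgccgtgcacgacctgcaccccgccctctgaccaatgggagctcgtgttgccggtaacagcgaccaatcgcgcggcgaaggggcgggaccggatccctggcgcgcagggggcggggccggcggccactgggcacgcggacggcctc
Ciart, chr3:95882229-95882478, minus strand: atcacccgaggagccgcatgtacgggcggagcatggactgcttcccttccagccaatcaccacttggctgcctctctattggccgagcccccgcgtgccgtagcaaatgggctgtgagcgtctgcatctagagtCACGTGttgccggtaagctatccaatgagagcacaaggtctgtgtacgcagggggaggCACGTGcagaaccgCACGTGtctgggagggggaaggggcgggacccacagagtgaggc
Cry1, chr10:85185055-85185304, minus strand: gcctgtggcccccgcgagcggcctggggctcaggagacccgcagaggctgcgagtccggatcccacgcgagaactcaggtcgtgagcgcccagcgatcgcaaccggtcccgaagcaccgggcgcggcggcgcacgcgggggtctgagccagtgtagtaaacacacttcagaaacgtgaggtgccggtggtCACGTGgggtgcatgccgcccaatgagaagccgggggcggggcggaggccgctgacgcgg
Per3 held the D-box TTATGTAA at 205 and 158 bases before the start. Ciart held the E-box CACGTG at 116, 58 and 44 bases before the start, and Cry1 held 1 E-box at 60 bases. The search covered both strands for the E-box CACGTG, the D-boxes TTATGTAA and TTACGTAA, the ROR elements TAGGTCA and TGGGTCA, and the cAMP response element TGACGTCA. Among all 32851 promoter windows of this length, 6.02% held the E-box, 0.931% a D-box, 5.38% a ROR element and 1.55% the cAMP response element. The windows of Clock, Npas2, Cry2, Nr1d1, Nr1d2 and Dbp held none of these letters, and Per2 had no window in the table.

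Total counts ranged from 23603816 to 42575326 per library, and each member had between 42 counts (Npas2, the lowest) and 2860 counts (Nr1d1, the highest) in a library. Levels are given as CPM, the usual depth-scaled count unit, here relative to the library total after scaling by trimmed mean of M values. The 7 myelinating oligodendrocyte markers (Mbp and Mog among them) summed to between 102700 and 147000 CPM per library and the 6 neuronal markers to between 22.2 and 32.9 CPM. A single library stood apart: the 7 astrocyte markers summed to 5673 CPM in male BPA 2, against 1181 to 2124 CPM in male controls, 863 to 1700 CPM in the other 3 male BPA libraries, 1169 to 2295 CPM in female controls and 1503 to 2181 CPM in female BPA. Each of the 7, from Aqp4 at 398.5 CPM (at most 139.9 CPM elsewhere) to Gfap at 110.4 CPM (at most 88.3 CPM elsewhere), was at its highest there, and no listed astrocyte marker was at 0 counts in every library. Its endothelial sum (96.4 CPM) and its mural and fibroblast sum (95.4 CPM) were also the highest of the 16, and its myelin marker sum the lowest. The immediate early genes, which respond within minutes to stimulation and tissue handling, summed to 2089 CPM in male BPA 2 and 2317 CPM in female BPA 1, against 767 to 1884 CPM in the other 14. Fold changes in males are therefore given with and without male BPA 2.

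**Figure D1:**
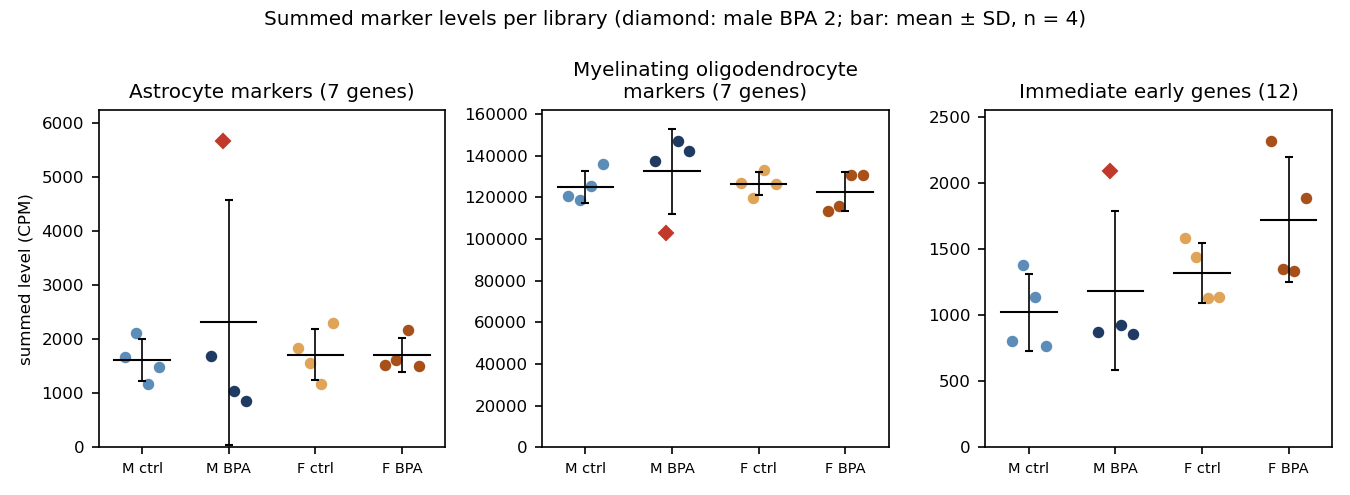
Summed levels in CPM (vertical axes) of astrocyte markers, myelinating oligodendrocyte markers and immediate early genes in each library, by group, with the group mean and SD. Male BPA 2, the diamond, has the highest astrocyte sum (5673 CPM) and the lowest myelin sum (102700 CPM), while the other 3 male BPA libraries have myelin sums above those of all 4 male controls.

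In the controls all 10 genes were detected in every library. Per kilobase of transcript, in the authors' normalized counts divided by the median transcript length, Cry1 was highest at 1680 ± 155 (SD, n = 8). Dbp at 666 ± 88.6, Nr1d2 at 635 ± 55.1 and Nr1d1 at 618 ± 66.4 followed, with overlapping ranges. Clock (451 ± 30.99), Cry2 (381 ± 23.1) and Ciart (371 ± 69.6) formed an overlapping run below them, and Per3 (261 ± 26.7), Npas2 (168 ± 49.4) and Per2 (91.4 ± 10.4) another. This order depends on the length used. The authors' length was 456 bases for Cry1 and 484 bases for Npas2, whereas their longest GENCODE M21 transcripts have 3026 and 4236 bases. Per kilobase of the longest transcript, Dbp (13.2 ± 1.80 CPM per kb) and Nr1d1 (11.6 ± 1.23 CPM per kb) were highest, with overlapping ranges, Cry1 was the third highest (7.38 ± 0.666 CPM per kb) and Npas2 lowest (0.560 ± 0.164 CPM per kb). Across the 8 controls Cry2 and Clock were the steadiest members, with coefficients of variation of 5.87% and 6.78%, and Npas2 varied most, at 29.3%. Lower coefficients than theirs were found in 19.7%, 26.9% and 80.4% of all tested genes.

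None of the 10 genes passed the test for BPA against control (limma-voom, Benjamini-Hochberg adjusted p under 0.05, over 16339 genes), in either sex, over both sexes, or in the difference between the sexes. Of all genes tested, 0.0184% passed over both sexes, 0.00612% in males, 0% in females and 0% for the difference. With all 16 libraries no member reached an unadjusted p under 0.05 over both sexes (7.5% of all genes did), in males (7.8%) or in the difference (4.58%), and 1 of 10, Clock, did in females (4.36%). The BPA males were split. Male BPA 2 held the highest level of all 16 libraries for 7 of the 10 members, against 18.1% of all genes tested. The other 3 male BPA libraries lay below all 4 male controls for 5 of the 10, Per3, Cry2, Nr1d1, Nr1d2 and Dbp, against 5.95% of all genes.

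**Figure D2:**
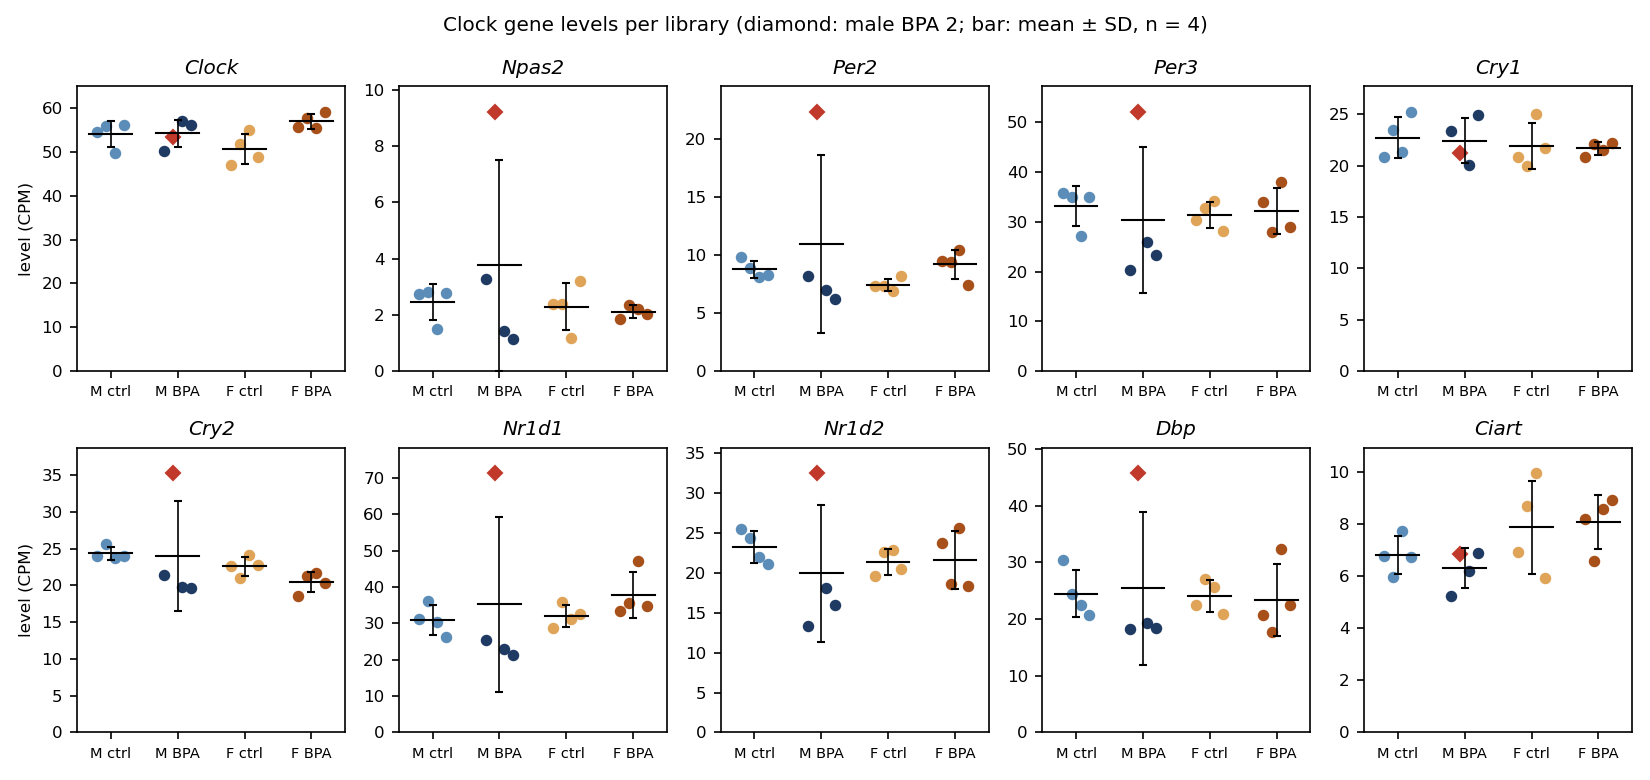
Level in CPM (vertical axes, from 0) of each of the 10 clock genes in the 4 libraries of each group, with the group mean and SD. Male BPA 2 is the diamond and lies above every other library for Npas2, Per2, Per3, Cry2, Nr1d1, Nr1d2 and Dbp, while Clock, Cry1 and Ciart show it within its group.

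Of the activators, Clock was the most evenly expressed. It stood at 54.7, 56.0, 49.8 and 56.3 CPM in male controls and at 50.3, 53.5, 57.1 and 56.2 CPM in male BPA. The female values were 46.98, 51.8, 55.0 and 48.9 CPM in controls and 55.8, 57.7, 55.6 and 59.2 CPM in BPA. The male groups overlapped and the female groups did not: the 4 female BPA libraries all lay above the 4 female controls, a separation that 1.43% of all genes showed and that no other member did. The log2 fold change was 0.17 ± 0.06 (SE) in females, with an unadjusted p of 0.011 and a limma-voom adjusted p of 1, and 0.00 ± 0.06 in males (0.00 ± 0.07 without male BPA 2). The difference between the sexes was 0.17 ± 0.08 (unadjusted p = 0.0608). Npas2, which can take the place of CLOCK, had the lowest level of the members in CPM, which is not scaled to length. It stood at 9.22 CPM in male BPA 2 and between 1.13 and 3.29 CPM in the other 15 libraries. Without that library its male log2 fold change was -0.45 ± 0.38 (unadjusted p = 0.252), and with it 0.20 ± 0.52, so its direction in males turned on 1 library.

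The period genes encode the inhibitors that accumulate and shut down the activators. Per3 stood at 35.8, 34.98, 27.2 and 34.9 CPM in male controls and at 20.2, 52.1, 25.9 and 23.3 CPM in male BPA 1 to 4. Female controls stood at 30.5, 32.8, 34.2 and 28.2 CPM and female BPA at 33.97, 27.95, 37.9 and 29.01 CPM. Male BPA 1, 3 and 4 lay below every male control and male BPA 2 lay above every other library, whereas the female groups overlapped. The male log2 fold change was -0.21 ± 0.22 (limma-voom adjusted p = 0.867) with all libraries. It was -0.53 ± 0.13 without male BPA 2, with an unadjusted p of 0.00128 and an adjusted p of 0.228. Per2 stood at 9.77, 8.84, 8.11 and 8.25 CPM in male controls and 8.18, 22.3, 6.96 and 6.21 CPM in male BPA. Its levels in females were 7.27, 7.34, 6.91 and 8.13 CPM in controls and 9.46, 9.41, 10.4 and 7.41 CPM in BPA. Female BPA 1, 2 and 3 were above all female controls, and the males overlapped. The log2 fold change of Per2 without male BPA 2 was -0.31 ± 0.13 in males (unadjusted p = 0.0297, adjusted p = 0.395) and 0.31 ± 0.11 in females (unadjusted p = 0.0137, adjusted p = 0.849). With it the male value turned to 0.16 ± 0.30, and the female value, from the same female libraries, was 0.32 ± 0.305 (limma-voom unadjusted p = 0.305).

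The cryptochromes, partners of the period proteins, differed from each other. Cry2 stood at 24.1, 25.7, 23.8 and 24.1 CPM in male controls and 21.4, 35.3, 19.9 and 19.7 CPM in male BPA. In females it was 22.6, 21, 24.1 and 22.8 CPM in controls and 18.6, 21.3, 21.8 and 20.4 CPM in BPA. In males, BPA 1, 3 and 4 lay below all 4 controls, and male BPA 2 lay above every library. The female groups overlapped, with female BPA 2 and 3 (21.3 and 21.8 CPM) above female control 2 (21 CPM). Over both sexes the log2 fold change was -0.09 ± 0.10 with all libraries (exact permutation within sex, two-sided p = 0.367). Leaving out male BPA 2, the highest library for Cry2, it was -0.21 ± 0.05, 0.866-fold, with an exact permutation p of 0.00122 over 2450 regroupings. That permutation setting was not planned, and permutation p-values were not adjusted over the members. Male BPA 2 was left out with its values known, and the regroupings do not repeat that choice, so 0.00122 is not an exact p for it. Leaving it out lowers the BPA mean of Cry2 by construction, also in the limma-voom values that follow. The limma-voom unadjusted p of Cry2 without male BPA 2 was 0.00041, rank 24 of 16240 genes. Its adjusted p was 0.226, the lowest that any member reached under any of the 1140 alternative values. Cry1 was near 22 CPM throughout, between 20.01 and 25.2 CPM in all 16 libraries. Its log2 fold change was -0.01 ± 0.09 in males and -0.02 ± 0.09 in females, with 95% confidence intervals from -0.20 to 0.17 and from -0.20 to 0.17, and the male value was 0.01 ± 0.10 without male BPA 2. Ciart, an inhibitor of the CLOCK pair, ranged from 5.25 to 9.94 CPM, with overlapping groups in both sexes. Its log2 fold change was -0.11 ± 0.17 in males (-0.16 ± 0.19 without male BPA 2) and 0.05 ± 0.15 in females, and male BPA 2 lay within its group at 6.85 CPM.

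The REV-ERB receptors repress the activator genes. Nr1d1 stood at 31.3, 36.1, 30.3 and 26.2 CPM in male controls and 25.3, 71.3, 23.1 and 21.3 CPM in male BPA. For females the levels were 28.7, 35.8, 31.1 and 32.6 CPM in controls and 33.4, 35.6, 47.2 and 34.9 CPM in BPA. Male BPA 1, 3 and 4 lay below the lowest male control, male BPA 1 by less than 1 CPM, and female BPA 3 lay above all other females. The log2 fold change of Nr1d1 without male BPA 2 was -0.40 ± 0.13 in males (unadjusted p = 0.00879, adjusted p = 0.303) and 0.22 ± 0.11 in females (unadjusted p = 0.0651). With all libraries these were 0.03 ± 0.29 and 0.24 ± 0.28. Nr1d2 stood at 25.6, 24.4, 22.1 and 21.2 CPM in male controls and 13.4, 32.5, 18.1 and 15.9 CPM in male BPA. In females it was 19.6, 22.6, 22.9 and 20.5 CPM in controls and 23.8, 18.6, 25.7 and 18.4 CPM in BPA. Here male BPA 1, 3 and 4 lay more than 3 CPM below the lowest male control. The male log2 fold change was -0.28 ± 0.20 with all libraries and -0.58 ± 0.14 without male BPA 2, where its unadjusted p of 0.000823 was the smallest of the 10 and its adjusted p was 0.228. Over both sexes its exact permutation p, not adjusted over the members, was 0.36 with all libraries. It was 0.0429 without that library, a setting that was not planned and whose regroupings do not repeat the choice of the library left out.

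Dbp, the output factor, stood at 30.4, 24.4, 22.6 and 20.8 CPM in male controls and 18.3, 45.7, 19.3 and 18.4 CPM in male BPA. In females it was 22.5, 27.1, 25.7 and 20.98 CPM in controls and 20.7, 17.8, 32.4 and 22.6 CPM in BPA. Male BPA 1, 3 and 4 were within 1 CPM of one another, at 18.7 ± 0.542 CPM (SD, n = 3), and male BPA 2 was at 2.03 times the median of the other 15 libraries. The male log2 fold change of Dbp without male BPA 2 was -0.39 ± 0.19 (unadjusted p = 0.0587, adjusted p = 0.462), and with it -0.03 ± 0.26. Overlapping genes limit these counts where strand was not used in counting, which the sources used here do not give. Exons of Nr1d1 share 263 bases (8.55% of its exon bases) with Thra on the opposite strand, which averaged 738 CPM and stood at 600.4 CPM in male BPA 2, where Nr1d1 was highest. Exons of Dbp share 539 bases (18%) with Sphk2, also on the opposite strand, which averaged 67.2 CPM and stood at 62.5 CPM in male BPA 2.

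Read together, the 10 genes gave different pictures in males with and without 1 library. With all 16 libraries, 4 members were higher and 6 lower in BPA males, with a median log2 fold change of -0.02 against 0.02 for all genes tested. Of all genes 8948 were higher and 7391 lower. Members that vary together do not give independent signs. When male BPA 2 was left out, 8 of 10 were lower with a median of -0.35, against 0.00 for all 16240 genes then tested, of which 8112 were lower. In all, 5 of the 10 (Per2, Per3, Cry2, Nr1d1 and Nr1d2) were lower at an unadjusted p under 0.05, where 5.88% of all genes were lower and 11.3% passed in either direction. None passed the adjusted threshold, which 0% of genes did there. Male BPA 2 held the highest level of the 16 libraries for 7 of the 10 members and for 18.1% of all genes. Leaving it out therefore lowers the male BPA mean of most members by construction, and the shares over all genes are not a like comparison. In females, 6 of 10 were higher (8611 of all 16339 genes) with a median of 0.03 (0.01 for all genes), and Clock had an unadjusted p under 0.05. When male BPA 2 was left out of the fit, Clock, Per2 and Cry2 had one in females, against 5.83% of all genes, and 0% passed the adjusted threshold. The female libraries were the same in both fits, and the SE of Per2 was 0.305 with all 16 libraries and 0.112 without male BPA 2. Over both sexes without male BPA 2, Per3, Cry2 and Nr1d2 did so in the lower direction, against 8.28% of all genes in either direction, and 0.0308% of genes passed the adjusted threshold.

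**Figure D3:**
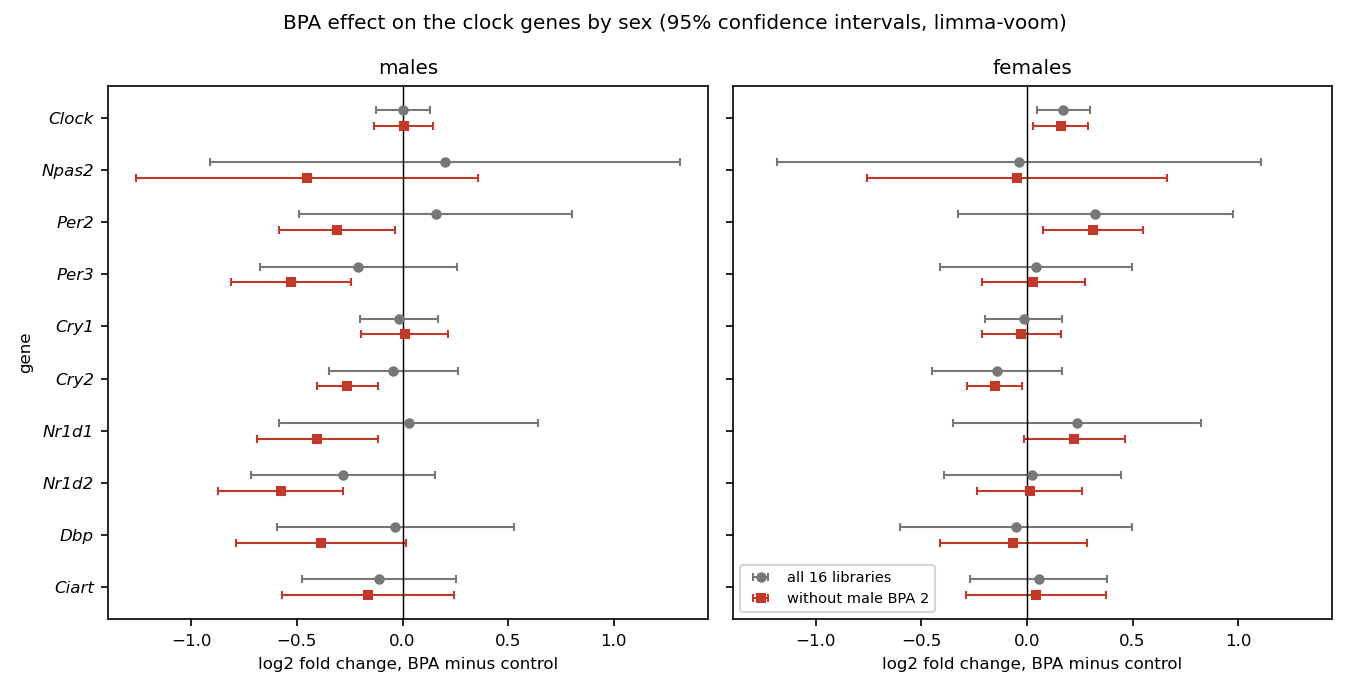
Log2 fold change of BPA against control (horizontal axis) with its 95% confidence interval for each gene in males and females, fitted with all 16 libraries (circles) and without male BPA 2 (squares). In males the squares lie to the left of the circles for 8 of the 10 genes, with Per3 at -0.53 and Nr1d2 at -0.58, and in females both sit close together.

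The difference between the sexes was tested directly. With all 16 libraries it had unadjusted p-values from 0.0608 (Clock) to 0.997 (Cry1) among the members. With male BPA 2 left out, the effect in females minus that in males was 0.63 ± 0.17 for Nr1d1 and 0.62 ± 0.17 for Per2 (limma-voom unadjusted p of 0.00274 and 0.00243). For Nr1d2 it was 0.59 ± 0.18 and for Per3 0.56 ± 0.18 (unadjusted p of 0.00532 and 0.00634). These 4 of 10 compare with 9.33% of all genes at that threshold, and 0% passed the adjusted one. Their adjusted p-values were 0.471, 0.471, 0.471 and 0.481. Male BPA 2 was the highest library for each of these 4 genes, so leaving it out lowers their male effect by construction. Other marker groups moved with the male contrast. Myelinating oligodendrocyte markers summed to 137300, 147000 and 142400 CPM in male BPA 1, 3 and 4 and to between 118700 and 135800 CPM in male controls. Markers of oligodendrocyte precursors (Pdgfra, Cspg4, Ptprz1, Sox6 and Lhfpl3) summed to 566, 621 and 594 CPM in the same 3 libraries and to between 710 and 874 CPM in male controls, and those of committed and newly formed cells to between 4782 and 5290 CPM against 5401 to 6564 CPM. Immediate early sums of the 3 (854 to 929 CPM) lay within the range of male controls (767 to 1378 CPM). Glucocorticoid response genes, which include Fkbp5 and Sgk1, summed to 1010, 805 and 780 CPM against 712 to 929 CPM. The part of these shifts in the clock gene values was not tested for the males alone. Over both sexes, with the astrocyte marker mean as a covariate, the log2 fold changes of Per3 and Nr1d2 were -0.13 and -0.17 and that of Nr1d1 0.07, and no member passed the adjusted threshold. In bulk RNA, fewer cells of a type and less RNA per cell cannot be told apart.

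Beyond the 10 members, 22 other genes of the clock and its regulators were listed, and all 22 were tested. None passed the adjusted threshold in any contrast of BPA against control. In males 2 of the 22, Arntl and Btrc, were higher at an unadjusted p under 0.05, a share near the 7.8% of all genes under it in either direction. Arntl, whose product BMAL1 pairs with CLOCK and which the REV-ERB receptors repress, stood at 13.9, 13.9, 11.3 and 14.1 CPM in male controls and 17.5, 17.3, 14.2 and 17.3 CPM in male BPA. It was thus higher in all 4 BPA males, male BPA 2 included, though male BPA 3 (14.19 CPM) barely exceeded male control 4 (14.13 CPM). The share of all genes with the BPA males above all male controls was not computed. The male log2 fold change of Arntl was 0.32 ± 0.09 (unadjusted p = 0.0035, limma-voom adjusted p = 0.443). It was 0.29 ± 0.10 without male BPA 2 and 0.03 in females. Btrc, a subunit of the ubiquitin ligase that marks PER proteins for destruction, stood at 24.8, 24.2, 24.3 and 29.8 CPM in male BPA and between 17.8 and 22.1 CPM in male controls (log2 fold change 0.43 ± 0.13, unadjusted p = 0.00534, adjusted p = 0.485, and 0.46 ± 0.15 without male BPA 2). Gsk3b, Usp2, Tef and Tipin are named for the order of their p in the list and did not reach an unadjusted p under 0.05 over both sexes. Gsk3b, a kinase of several clock proteins, had -0.07 ± 0.04 (limma-voom unadjusted p = 0.0961) and Usp2, a deubiquitinase, 0.13 ± 0.08 (0.108). Tef, a D-box factor like DBP, had -0.08 ± 0.07 (0.229) and Tipin, the partner of TIMELESS in replication, -0.09 ± 0.08 (0.235). Tef was lower in the 3 other male BPA libraries (106.4, 97.9 and 102.5 CPM) than in all male controls (120.1 to 125.2 CPM). Those 3 libraries lay below all male controls for 2 of the 22 genes, near the 5.95% of all genes, and above them for 2. The log2 fold change of Tef in males was -0.26 ± 0.09 without male BPA 2 (unadjusted p = 0.0135, adjusted p = 0.349) and -0.18 ± 0.09 with it. Hlf, the third D-box factor of that family and named here after its values were seen, had -0.70 ± 0.28 in males without male BPA 2 (unadjusted p = 0.0242, adjusted p = 0.384) and -0.17 ± 0.39 with it. Its levels in male BPA 1, 3 and 4 (4.35 to 9.06 CPM) overlapped male controls (7.07 to 11.49 CPM). In the male fit without male BPA 2, 2 of the 22, Tef and Hlf, were lower at an unadjusted p under 0.05, where 5.88% of all genes were, and 2 were higher.

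Because Arntl and the E-box genes peak in opposite phases, the log2 difference between a member and Arntl was compared between libraries. Per3 minus Arntl was 1.36, 1.33, 1.26 and 1.30 in male controls and 0.21, 1.59, 0.87 and 0.43 in male BPA. Nr1d2 minus Arntl was between 0.58 and 0.96 in male controls and was -0.38, 0.91, 0.35 and -0.11 in male BPA. For Per3 and Nr1d2, male BPA 1 and 4 had the lowest differences of the 16 libraries. In female BPA, Per3 minus Arntl was 1.32, 0.98, 1.37 and 0.85, which overlapped the female controls (0.85 to 1.32). These differences are a description chosen after the values were seen and carry no test. Arntl did not run opposite to Dbp within groups. With group means removed, their Pearson correlation in log2 CPM was 0.127 over the 16 libraries and -0.02 without male BPA 2. Male BPA 2 had the second highest Arntl level together with the highest levels of Dbp, Per3, Nr1d1 and Nr1d2.

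**Figure D4:**
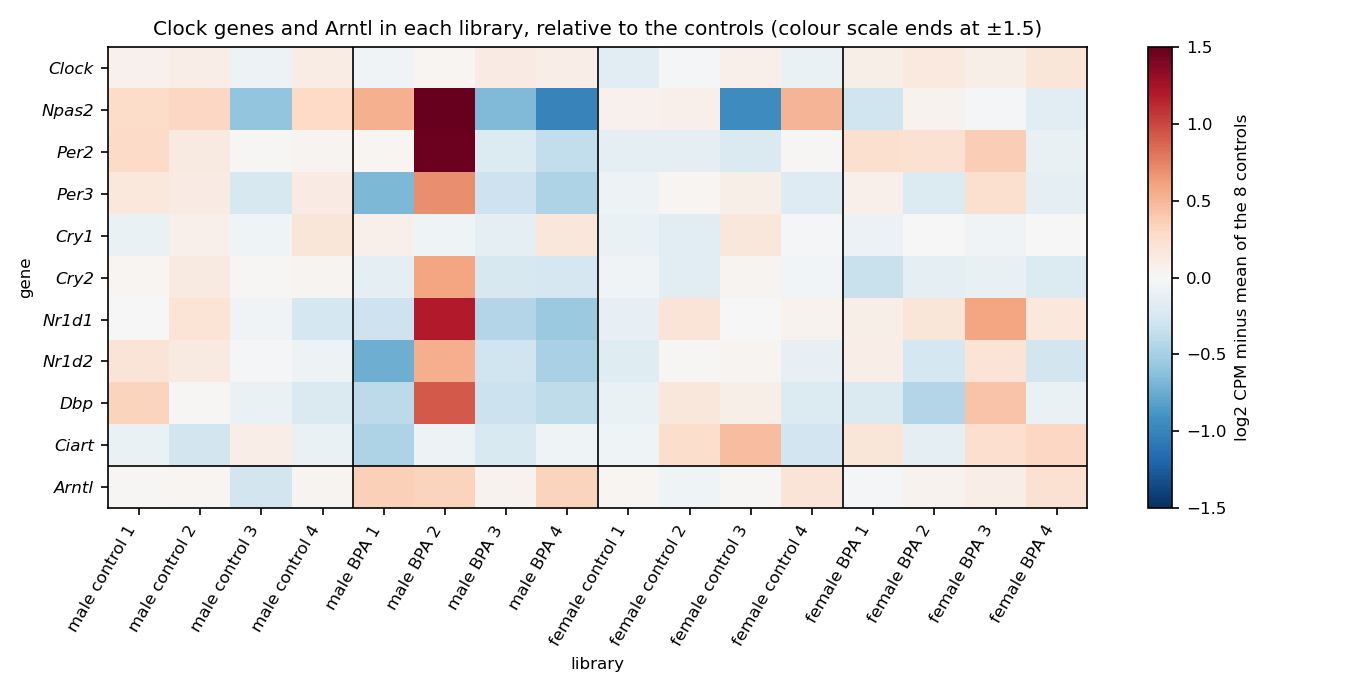
Log2 CPM of the 10 members and Arntl (rows) in each library (columns), relative to the mean of the 8 controls, with blue for lower and red for higher and the colour scale ending at ±1.5. Male BPA 1, 3 and 4 are blue for Per3, Cry2, Nr1d1, Nr1d2 and Dbp, male BPA 2 is red for 7 members, and Clock and Cry1 stay pale in all libraries.

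The members also differed in how they varied together. With group means removed, the Pearson correlation with Dbp in log2 CPM over the 16 libraries was 0.897 for Nr1d2, 0.896 for Nr1d1 and 0.890 for Per3, which ranked 2, 3 and 5 among 16338 genes. It was 0.815 for Per2, 0.788 for Cry2, 0.589 for Npas2 and 0.414 for Ciart, and it was 0.002 for Clock and -0.303 for Cry1. Spearman's rho was 0.774, 0.782 and 0.788 for Nr1d2, Nr1d1 and Per3. Male BPA 2 carried much of this. Without it the correlations were 0.685 for Nr1d2, 0.658 for Nr1d1 and 0.642 for Per3, ranking 124, 179 and 204, while Per2 had 0.274, Cry2 0.144 and Npas2 -0.083. Then 3 of 9 members exceeded 0.5, which 4.32% of all genes did, and with all libraries 6 of 9 did, against 11.7% of all genes. Without male BPA 2 and female BPA 3, the libraries farthest from the median of Dbp, the values for Nr1d2, Per3 and Nr1d1 were 0.533, 0.478 and 0.354. The relation of Per2, Cry2 and Npas2 to Dbp rested largely on male BPA 2, as the values without that library alone show. All points share the libraries and their cell mixture, so these correlations are descriptions.

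**Figure D5:**
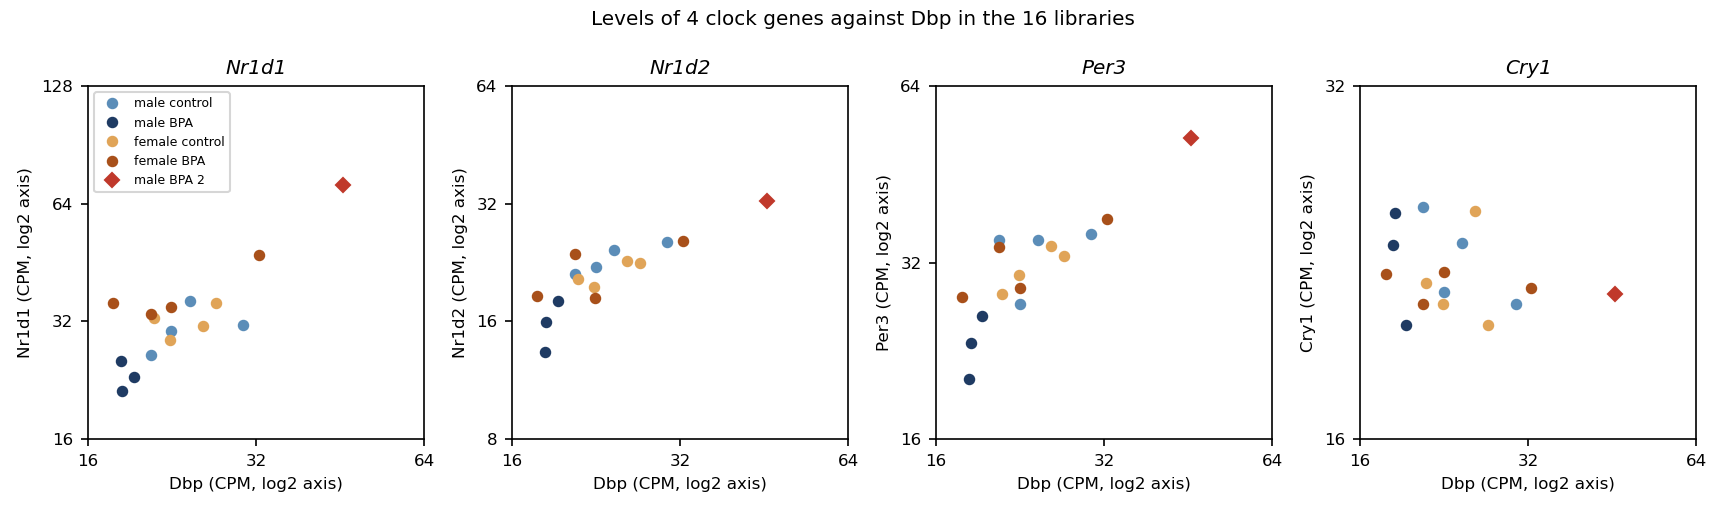
Level of Nr1d1, Nr1d2, Per3 and Cry1 (vertical axes) against Dbp (horizontal axis) in CPM on log2 axes, 1 point per library. Nr1d1, Nr1d2 and Per3 are higher where Dbp is higher, with male BPA 2 at the upper end and male BPA 1, 3 and 4 at the lower end, and Cry1 shows no such slope.

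Outside both clock lists, the genes whose pattern was most like that of Dbp over the 16 libraries were Cyp26b1 (r = 0.944), which degrades retinoic acid, Zc3h13 (0.895), Wasf3 (0.888), Cecr2 (0.888) and Chil1 (0.879), a gene of reactive astrocytes. The most opposed were Wdr45 (-0.928), Scarb2 (-0.886), Paip2b (-0.877), Sec23ip (-0.877) and Fam3a (-0.866). Without male BPA 2, Cyp26b1 remained among the 5 most alike (0.859), and Srsf5 (0.923), Epn1 (0.869) and Fdps (0.863) had higher values than it.

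Between unexposed females and males, no member passed the test, as 0.0551% of all genes did, and none reached an unadjusted p under 0.05, as 2.94% did. The log2 difference, females minus males, ranged from -0.24 ± 0.31 for Per2 to 0.18 ± 0.16 for Ciart. In females 8 of the 10 were lower, with a median of -0.09 against 0.00 for all genes tested, of which 8477 of 16339 were lower. The widest 95% confidence interval, that of Npas2, ran from -1.28 to 0.98 and the narrowest, that of Clock, from -0.22 to 0.03.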

How the data were processed

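RNA was sequenced from 16 libraries of O4-sorted oligodendrocytes, 4 per group of sex and exposure. The libraries were poly(A)-selected and stranded, per the labels' protocols. The submitters' processing notes name DESeq2 1.16.1, HTSeq 0.6.1p1, STAR 2.5.3a, bcl2fastq 2.20.0.422 and build mm39. The strand setting of the counting is not given in the sources used here. The deposited table holds raw counts, normalized values and values per kb of median transcript length, per the labels; from the values, the normalized columns equal the deposited counts over size factors of the median-of-ratios kind. An automated unit check was unable to parse the table, so its columns are recorded as other, with the deposited count columns described from their values. For that reason limma-voom is the main test, and edgeR and DESeq2 were not run.

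Genes needed a count of at least 10 in enough libraries and 15 in total, which left 16339 genes holding 99.947% of the counts. Trimmed mean of M values was re-implemented in R 4.3.3, and limma 3.58.1 fitted 1 coefficient per group with robust empirical Bayes. Tests were two-sided with Benjamini-Hochberg adjustment over all genes tested and a threshold of 0.05, and the procedure was tested on simulated data. Per-gene exact permutation tests regrouped libraries within sex (4900 regroupings, log2 CPM with a prior count of 2). Their p-values are unadjusted. The setting without male BPA 2 (2450 regroupings) was not planned, and its regroupings do not repeat the choice of the library left out. The members, the other clock genes and the marker lists were chosen with earlier results of these data known, and male BPA 2 was known to stand apart. All members, Arntl and the 6 other clock genes with the smallest p over both sexes are named, together with the 5 genes most and least correlated with Dbp (full symbol, mean of at least 1 CPM). The same without male BPA 2 was added after the data were seen. The results of 2 genes that these rules select are not reported here. Symbols and overlaps come from GENCODE M21 (GRCm38) and promoters from RefSeq, in which 9 of 10 members had a window. The limit that 0 counts allow, 3 counts, lay between 0.0705 and 0.127 CPM and covers counting error only. Fitted quality weights, an added alternative, were 0.23 for male BPA 2 and from 0.73 to 1.41 for the others.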

Additional observations from a re-analysis of the deposited data

Results flagged for a closer look

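Within each group of 4, a library was looked at again where its gap to the nearest other value was, as a share of the group's range, above Dixon's 95% critical value for 4 values. Of 40 groups tested (10 genes in 4 groups), 7 exceeded it. The share of all tested genes that exceed it was not computed. The 10 genes were read in the same 16 libraries, so the 40 groups are not independent. Male BPA 2 accounted for 4 of the 7, with Per2 at 22.3 CPM, Cry2 at 35.3 CPM, Nr1d1 at 71.3 CPM and Dbp at 45.7 CPM, each the highest of the 16 libraries. Female BPA 3 stood above its group for Nr1d1 at 47.2 CPM. Male control 3 stood below its group for Npas2 at 1.5 CPM and for Per3 at 27.2 CPM. Over all tested genes the median ratio of male BPA 2 to the median of the other 15 libraries was 1.0, and 15.2% of genes had a ratio over 1.5, as did 7 of the 10 members.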

How the results depend on the processing

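The edgeR and DESeq2 alternatives were not run, since the unit check could not read the count columns. No member passed the adjusted threshold under any of 1140 alternative values. Among the log2 fold changes of the members, what moved was the sign of the values given below, some near 0 and some turning on male BPA 2 or another library. Across all genes tested, the count called in males was 2 with no filter, 0 with at least 1 CPM in 8 libraries, 4 with libraries of one sex only, 0 with quality weights and 0 without both male BPA 2 and female BPA 1. In females it was 2 with no filter and 1 with libraries of one sex only, and over both sexes 0 under the stricter filter, under the replicate block and without both libraries. Leaving out 1 library at a time, the counts ranged from 0 to 5 over both sexes, 0 to 3 in males and 0 to 3 for the difference between sexes, and the highest values came without female control 4 (5, 3 and 3) or, over both sexes, without male BPA 2 (5). In males the count was 0 without any library other than female control 4. Over both sexes it was 0 without any of 10 libraries, and not 0 without male control 2, female control 3 or 4, male BPA 2, or female BPA 3 or 4. Same-numbered libraries correlated between -0.24 and 0.24 in their deviations from group means (median 0.02, 24 pairs). Differently numbered ones correlated between -0.40 and 0.42 (median -0.02, 72 pairs). The labels do not say that the numbers pair libraries, and these values cannot exclude a shared litter or batch. Under the replicate block the only member that changed direction was Cry1 in the difference between sexes (0.0059).

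Without both male BPA 2 and female BPA 1, over both sexes, Npas2 had -0.22, Per2 -0.008 and Nr1d1 -0.0644. In males Npas2 had -0.45, Per2 -0.31, Cry1 0.0096 and Nr1d1 -0.40, and in females Npas2 had 0.0146, Per3 -0.003 and Nr1d2 -0.0405. The difference between sexes was then 0.47 for Npas2, 0.15 for Cry2 and 0.37 for Dbp. With a quality weight per library, over both sexes, Npas2 had -0.25, Cry1 0.0055, Nr1d1 -0.0292 and Ciart 0.0031. In males Npas2 had -0.34, Per2 -0.20, Cry1 0.0051 and Nr1d1 -0.30, in females Cry1 had 0.006, and the difference was 0.18 for Npas2, 0.0009 for Cry1, 0.0745 for Cry2 and 0.29 for Dbp. With the immediate early mean as covariate Npas2 had -0.15, Cry1 0.0249 and Nr1d1 -0.0172, and with the astrocyte mean Npas2 had -0.0689. Median-of-ratios scaling gave Clock -0.0047 in males and Cry1 0.0061 in the difference, which was 0.0014 with no filter. The correlation with Dbp was -0.019 for Clock under that scaling, and without the 2 farthest libraries -0.17 for Npas2, -0.037 for Per2 and -0.213 for Cry2. The cause of these reversals was not tested.

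Leaving out 1 library at a time turned the sign of these log2 fold changes. Over both sexes they ran from -0.25 to 0.30 for Npas2, from -0.0489 to 0.0131 for Cry1, from -0.0902 to 0.22 for Nr1d1, from -0.23 to 0.0187 for Dbp and from -0.096 to 0.029 for Ciart. In males they ran from -0.0383 to 0.033 for Clock, from -0.45 to 0.65 for Npas2, from -0.31 to 0.38 for Per2, from -0.0764 to 0.0355 for Cry1, from -0.26 to 0.0413 for Cry2, from -0.40 to 0.21 for Nr1d1 and from -0.39 to 0.0891 for Dbp. In females they ran from -0.34 to 0.17 for Npas2, from -0.0548 to 0.11 for Per3, from -0.0566 to 0.0435 for Cry1, from -0.0804 to 0.099 for Nr1d2, from -0.26 to 0.0712 for Dbp and from -0.0807 to 0.17 for Ciart. For the difference between sexes they ran from -0.69 to 0.41 for Npas2, from -0.0645 to 0.62 for Per2, from -0.057 to 0.0609 for Cry1, from -0.19 to 0.11 for Cry2 and from -0.23 to 0.32 for Dbp. For females minus males in controls they ran from -0.36 to 0.16 for Npas2, from -0.10 to 0.0165 for Cry1, from -0.007 to 0.13 for Nr1d1 and from -0.10 to 0.093 for Dbp. The correlation with Dbp ran from -0.15 to 0.12 for Clock and from -0.083 to 0.67 for Npas2. Without male BPA 2 the difference in mean log2 CPM over both sexes was -0.2335 for Npas2, -0.0008 for Per2 and -0.0906 for Nr1d1. Counting depth limits Npas2 most, with 42 to 370 counts per library.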
